A study of Ulva lactuca with 7 samples.

Results

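The 150 most abundant genes of thalli that never dried were followed through drying and return to seawater. Thalli are the flat blades of the green seaweed Ulva lactuca, which lives in the intertidal zone. Each assembled gene was represented by its transcript with the most reads over all libraries. Genes with a GC content of at least 35% were kept, 89069 of 90206. The 150 of these with the highest FPKM in the control library are described here. FPKM is the number of reads scaled by transcript length and library size, so it compares genes per length.

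The series holds 1 RNA sequencing library for each of 7 conditions. The control thalli were submerged throughout. Dried thalli had spent 24, 36 or 72 h at 20% moisture, and resubmerged thalli spent 1 h in autoclaved seawater following one of these periods. All thalli were acclimated to the laboratory after collection, and no strain or genotype is given in the labels. No condition has a replicate, so the 3 periods stand in for replicates of the dried or resubmerged state where a spread is given. Because the control library chose the genes, their control level and every ratio to the control are descriptions without a test. A gene that was high in that 1 library by chance would be lower elsewhere by the choice alone. Ratios between resubmerged and dried libraries do not contain the control level, though the scaling, the count filter and the choice of transcript used all 7 libraries.

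In green algae and plants, a small number of genes commonly supply a large part of the messenger RNA. Light-harvesting proteins, the small subunit of Rubisco, which fixes carbon dioxide, and ribosomal proteins are typical examples. Intertidal algae lose water at low tide, and photosynthesis slows in the dry thallus and resumes on rewetting. The files do not pair the assembly identifiers with gene names or products, so no role is given to any of the genes here and no pathway or marker list could be tested. The labelled tissue could not be checked against markers for the same reason.

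The counts of the genes kept, 1 transcript each, summed to 19673621 to 31252897 per library. A mean count of at least 10 was reached by 22186 genes, among them all 150, which make up 0.676% of these. The lowest control count among the 150 was 2144, so counting error was small in the control. In other libraries 3 of the 150 fell to 3 or fewer counts, and ratios that rest on few counts have wide counting intervals. No pair of libraries agreed within sampling noise, with a chi-square per gene of 177 to 807. Genes that are present in some libraries and near absent in others part the libraries, and 4 of the 150 met the rule for this given below. c16710_g1_i1, c33025_g1_i1, c34555_g1_i1 and c34706_g3_i1 had at least 7079 counts in the control and in the libraries resubmerged after 36 and 72 h. They had at most 121 counts in each of the other 4 libraries, so the library resubmerged after 24 h sided with the dried ones. Over all genes tested, 10 met the same rule of at least 256-fold below the control in those 4 libraries and within 8-fold in the other two. That rule was chosen with the values in view, and the 4 genes called near absent from some libraries are those that met it. Other genes of the 150 also had few counts in some libraries. For c27632_g2_i1 these were 10 when dried for 24 h and 19 when resubmerged after it, against 16618 in the control.

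Abundance within the 150 was steep. In the control, FPKM ran from 400.1 to 121756 with a median of 894. The highest level was that of c68088_g1_i1, a transcript of 236 nt with 61.0% GC. Its control FPKM was 121756, that of the dried libraries 39263, 40540 and 118470 in order of period, and that of the resubmerged libraries 289754, 265589 and 102538. It was thus lowest in the 24 and 36 h dried libraries and highest in the libraries resubmerged after the same periods. Both 72 h libraries stood near the control in FPKM. In counts scaled to library size (TMM) they were 0.875 times the control when dried and 0.616 times when resubmerged.

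The second, c79026_g1_i1 (211 nt, 54.5% GC), had an FPKM of 80119 in the control, 34504, 42431 and 61819 when dried, and 45631, 38828 and 44058 when resubmerged. The third, c33257_g3_i2 (1333 nt, 54.1% GC), had an FPKM of 66043 in the control, 39407, 44120 and 61002 when dried, and 37011, 42203 and 33373 when resubmerged. Both were below their control level in the other 6 libraries. As the longer transcript, c33257_g3_i2 took 10.5% of the control counts, more than any other of the 150.

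The fourth, c68860_g1_i1 (325 nt, 57.8% GC), had an FPKM of 57795 in the control, 75888, 91031 and 84969 when dried, and 79666, 60737 and 63157 when resubmerged. Its FPKM was above the control in each of the other libraries, but in TMM-scaled counts it was 0.9496 and 0.799 times the control after resubmergence from 36 and 72 h. The fifth, c34767_g1_i1 (1195 nt, 37.9% GC), had an FPKM of 22425 in the control, 99359, 74517 and 26462 when dried, and 19773, 15076 and 22699 when resubmerged. In the 24 h dried library it alone took 14.4% of the counts, against 3.18% in the control.

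**Figure D1:**
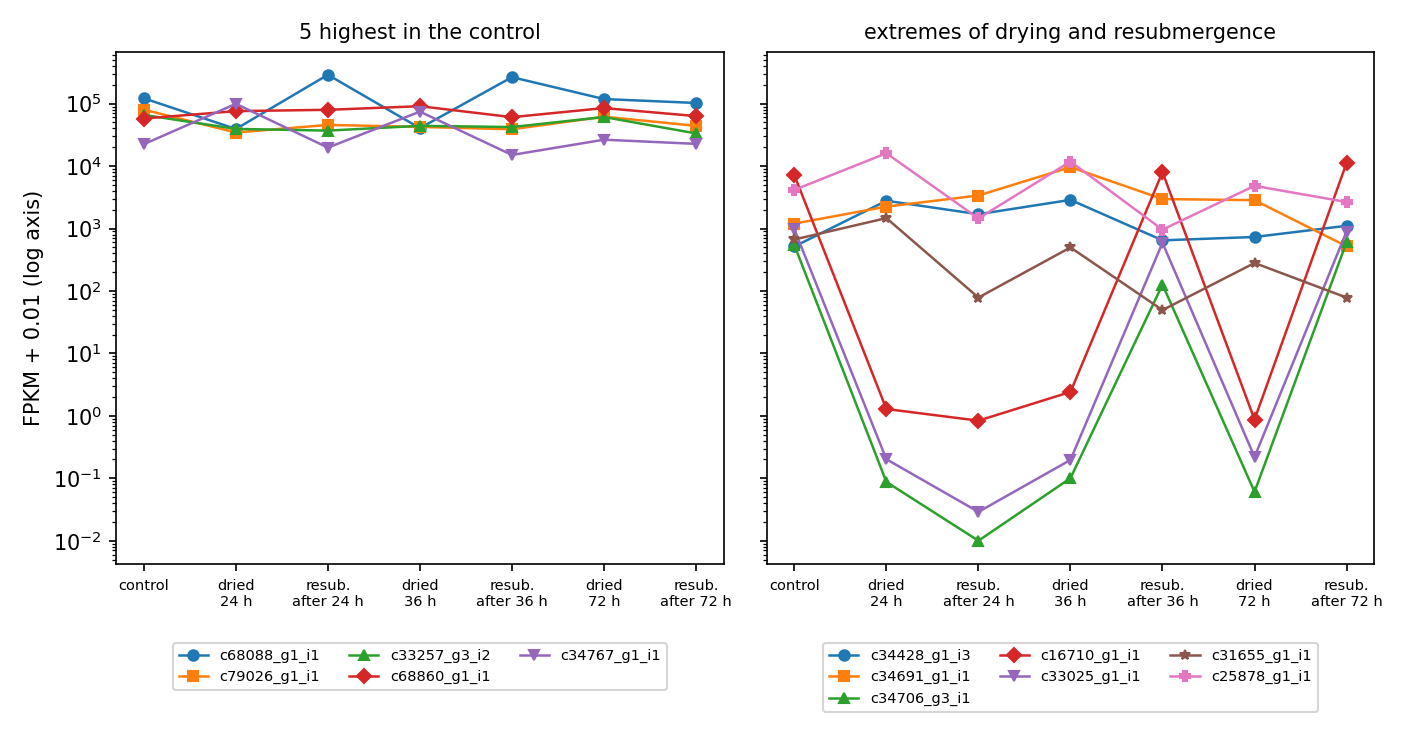
FPKM plus 0.01 on a log axis for single genes in each library, ordered by drying period, with lines only joining the values of a gene. Left, the 5 genes highest in the control stay between 15076 and 289754. Right, the genes at the ends of the drying and resubmergence ratios include c16710_g1_i1, c33025_g1_i1 and c34706_g3_i1, which sit at the bottom of the axis in 4 libraries.

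At the edge of the choice the levels were continuous. The control FPKM was 401.1 for c33879_g4_i2 and 400.1 for c34673_g3_i1, the last 2 genes included. It was 399.7 for c34257_g3_i2 and 395 for c34665_g1_i1, the first 2 left out. The 2 genes left out had an FPKM of 807 and 931 in the 24 h dried library, above the 120 and 425 of the last 2 included.

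The transcripts of the 150 were short. Their median length was 703.5 nt against 1301 nt for all genes tested, and 40 of them (26.7%) were under 350 nt, against 8.39% of all. Since FPKM divides by length, short transcripts reach a high FPKM with fewer reads, and length is part of the choice. When genes were ranked by control count instead, 99 of the 150 were chosen again. The median GC content was 54.1% against 55.9%. One of the 150 had 65% GC or more (0.667%), against 11.8% of all genes tested, while 18 had under 45% (12%), against 5.10%. The assembly gave a single transcript for 59 of them (39.3%, against 49.9% of all). Of the 91 with several, for 55 the next transcript reached a count within 20% of the largest (60.4%, against 71.1% of all), so reads can be shared between isoforms. In addition, 28 of the 150 lie in 13 assembly components that hold more than 1 of them, and these may be paralogs or fragments that share reads.

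The 150 genes took 46.4% of the control counts (exact binomial 95% interval 46.4 to 46.4, covering counting error only). Their share was 46.3%, 44.8% and 35.9% after 24, 36 and 72 h of drying, a mean of 42.3% ± 5.60 (SD, n = 3 periods). After resubmergence from 24, 36 and 72 h it was 38.4%, 37.6% and 33.9%, a mean of 36.6% ± 2.42 (SD, n = 3). Each resubmerged library was thus below the dried library of its period. At 24 and 36 h c34767_g1_i1 alone took 14.4% and 10.4% of the dried libraries, and 2.78% and 2.12% of the resubmerged ones. With its counts kept in the total, the rest of the 150 took less of the dried than of the resubmerged library at 24 and 36 h. Reads of these bulk libraries cannot show whether fewer cells held a transcript or each cell held less of it.

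Together the 5 leading genes took more of the dried libraries than of the control, by little at 72 h. This rested on c34767_g1_i1, with 3.18% of the control and 14.4%, 10.4% and 3.73% of the dried libraries. Without that gene the other leading genes together took less of each dried library than of the control. They took 21.3% of the control counts and 25.8%, 22.8% and 21.4% of the dried libraries in order of period. After resubmergence they took 20.8%, 19.4% and 14.8%. The genes at control ranks 51 to 150 took 9.34% in the control, 6.34%, 6.61% and 5.15% when dried, and 6.41%, 6.77% and 6.11% when resubmerged, so all 6 libraries were below the control there. Without the 4 genes near absent from some libraries, the 150 would have held 44.7% in the control, 46.3%, 44.8% and 35.9% when dried, and 38.4%, 36.0% and 31.4% when resubmerged. The 24 and 36 h dried libraries then stood at or above the control. These values still include c34767_g1_i1, and with that gene also left out both would stand below the control.

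**Figure D2:**
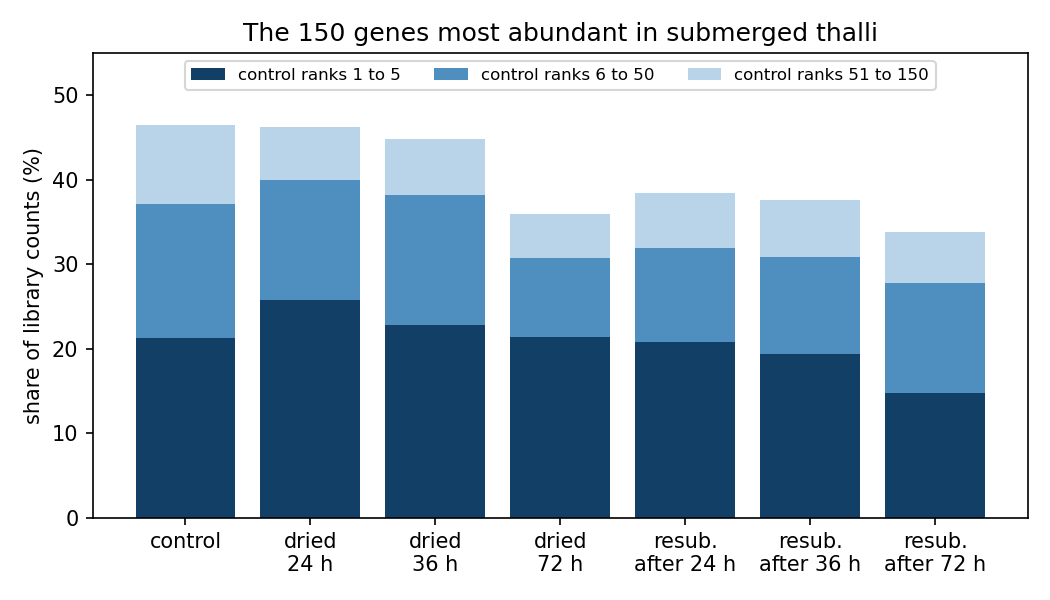
Share of the library counts (%) taken by the 150 genes, split by their control rank, in each of the 7 libraries. The total is 46.4% in the control and lowest, at 33.9%, in the library resubmerged after 72 h, and the band of ranks 51 to 150 is below its control height of 9.34% in every other library.

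Per length the order of the dried and resubmerged libraries differed at 24 and 36 h. As a share of summed FPKM the 150 held 72.6% in the control, 66.1%, 65.2% and 60.8% when dried, and 70.2%, 66.4% and 60.2% when resubmerged. The order at 24 and 36 h rested on c68088_g1_i1, with an FPKM of 39263 and 40540 when dried, and 289754 and 265589 when resubmerged. Without that transcript the dried share would be the higher one at 24 and 36 h. The 40 transcripts under 350 nt took 10.3% of the control counts, 7.41%, 7.39% and 9.33% when dried, and 14.3%, 12.2% and 8.0% when resubmerged. The 55 transcripts of 1000 nt or more took 30.4% in the control, 33.4%, 32.6% and 22.8% when dried, and 18.1%, 20.9% and 21.6% when resubmerged. Shares of the short and the long transcripts therefore differed in opposite directions between the dried and resubmerged libraries of 24 and 36 h. The single transcript c68088_g1_i1 held 8.04% and 7.37% of the counts in those 2 resubmerged libraries, and 1.12% and 1.11% in the dried ones. With its counts kept in the total, the rest of the short transcripts did not take more of these resubmerged libraries than of the dried ones.

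Membership of the top 150 turned over widely. Of the 150 genes, 83, 90 and 84 were also among the 150 highest by FPKM after 24, 36 and 72 h of drying, and 81, 90 and 94 after resubmergence. For scale, the top 150 of the 24 and 36 h dried libraries shared 122 genes, and those of the 36 and 72 h dried libraries shared 106. The top 150 of all 7 libraries together covered 316 genes. The median rank of the 150 genes was 75.5 in the control, as the choice fixes, and 102.5 to 127 in the other libraries. After 24, 36 and 72 h of drying, 23, 19 and 20 of them ranked beyond 1000, and after resubmergence 18, 7 and 12 did.

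**Figure D3:**
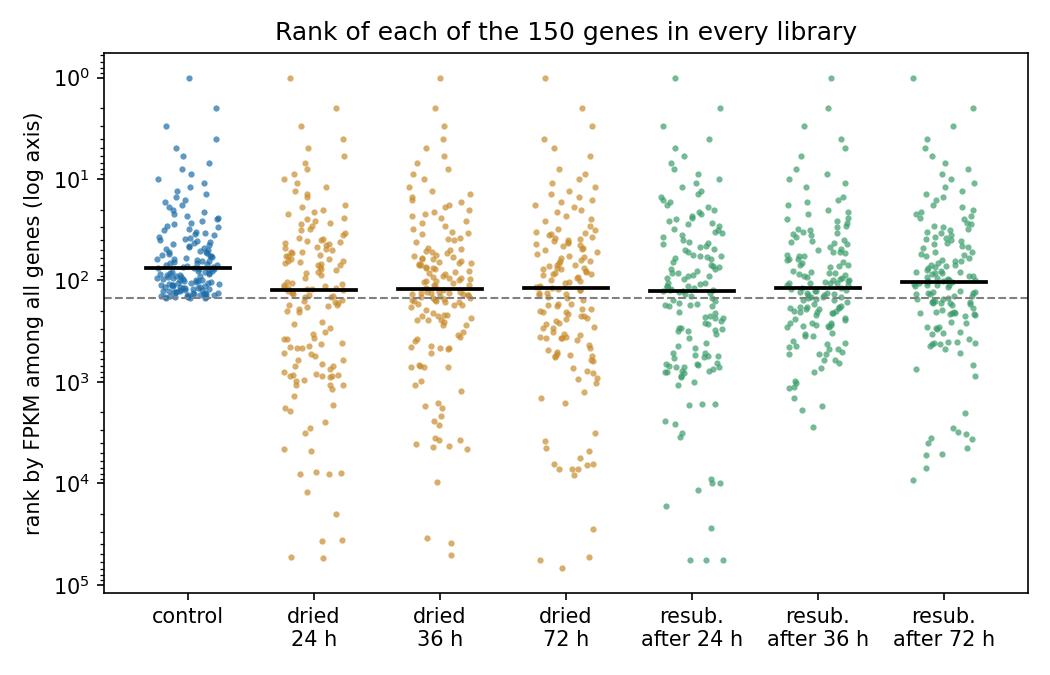
Rank by FPKM among all genes of 35% GC or more (log axis, rank 1 at the top) for each of the 150 genes in every library, with the median as a black bar and rank 150 as a dashed line. The lowest rank reached is 68408, in the 72 h dried library, and in the library resubmerged after 36 h no gene ranks below 2797.

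A core of 58 genes stayed in the top 150 of all 7 libraries. This core took 36.3% of the control counts, 42.9%, 41.2% and 32.8% when dried, and 35.4%, 31.0% and 27.7% when resubmerged. Another 27 genes were in the top 150 of the control only. Their median FPKM was 723 in the control, 48.5, 66.01 and 42.2 when dried, and 73.5, 146 and 99.1 when resubmerged. They took 2.21% of the control counts and 0.261% to 0.570% elsewhere. The other 65 genes took 7.93% in the control, 3.03%, 3.16% and 2.79% when dried, and 2.71%, 6.08% and 5.70% when resubmerged. The 4 genes near absent from some libraries are among these 65. The remaining 61 took 6.16% in the control, 3.03%, 3.16% and 2.79% when dried, and 2.71%, 4.43% and 3.23% when resubmerged, so each resubmerged library was then nearer to the dried values than to the control. These 3 sets are defined by the levels they are described with.

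Every library has its own top 150. The top 150 of the 24 h dried library took 53.1% of that library and 40.1% of the control. The top 150 of the library resubmerged after 72 h took 37.1% of that library and 42.8% of the control. The top 150 of the 72 h dried library took 40.0% of that library and 39.3% of the control. The share of a list was therefore not always highest in the library that chose it, and the library resubmerged after 72 h had the lowest share for its own list.

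Against the control, the genes were lower on balance in each dried library. The median log2 ratio of TMM-scaled CPM, counts scaled to library size, was -0.63, -0.68 and -1.15 after 24, 36 and 72 h, where that of all genes tested was 0.08, 0.01 and 0.00. At least 4-fold lower were 52, 42 and 59 of the 150 genes, where 7.34%, 7.5% and 8.29% of all genes were. At least 4-fold higher were 7, 2 and 0, where 12.3%, 10.8% and 18.3% of all genes were. Within 2-fold of the control were 60, 71 and 66 of them, where 57.8%, 55.7% and 47.2% of all genes were. Since the control chose the genes and is shared by the 3 comparisons, nothing is read from these counts against the background.

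The lowest ratios to the control were those of c34706_g3_i1 and c16710_g1_i1. Counts of c34706_g3_i1, a transcript of 1703 nt and 51.3% GC, were 22172 in the control, 5, 5 and 2 when dried, and 0, 7079 and 27727 when resubmerged. c16710_g1_i1 (1549 nt, 53.8% GC), the eighth gene by control FPKM, had 265914 counts in the control, 75, 121 and 31 when dried, and 41, 407263 and 467766 when resubmerged. The control was thus 4300-fold (95% counting interval 3431 to 5468), 2682-fold (2245 to 3233) and 9251-fold (6517 to 13615) above the dried libraries for c16710_g1_i1. After scaling, c16710_g1_i1 stood at 1.01 and 1.14 times its control level in the libraries resubmerged after 36 and 72 h, and c34706_g3_i1 at 0.210 and 0.812 times. Both were near absent from the library resubmerged after 24 h.

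The highest ratios to the control were far smaller. c34428_g1_i3 (1267 nt, 59.6% GC) showed 15642 control counts, 133820, 118438 and 21519 when dried, and 68701, 26929 and 37812 when resubmerged. Its mean log2 ratio of dried to control was 1.93 ± 1.37 (SD, n = 3 periods). c34691_g1_i1 (452 nt, 59.3% GC) showed 12971 control counts, 38458, 141369 and 29849 when dried, and 48859, 43997 and 6334 when resubmerged, with a mean log2 ratio of dried to control of 1.85 ± 1.14 (SD, n = 3). Both were above the control in 3 of 3 dried libraries, by 1.28-fold to 8.93-fold.

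**Figure D4:**
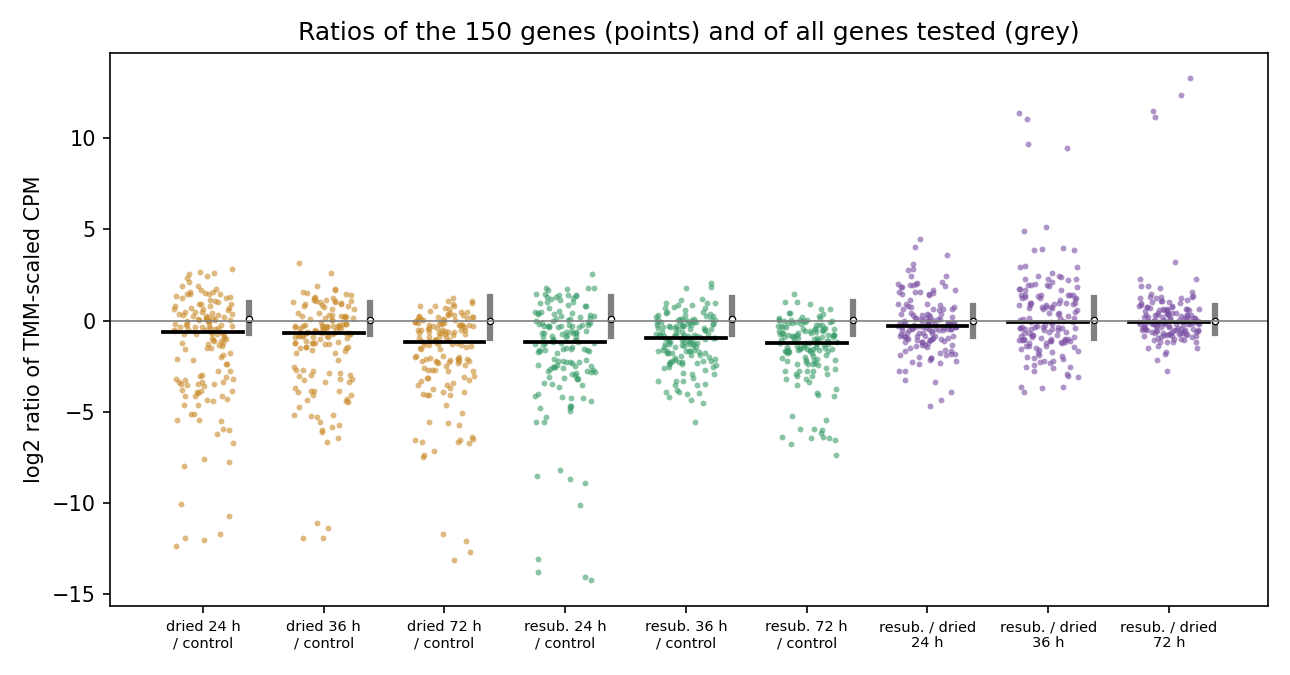
Log2 ratio of TMM-scaled CPM between single libraries for the 150 genes (points, median as a black bar) and for all 22186 genes tested (grey bar from the lower to the upper quartile, with the median as a white point). The 6 ratios to the control, which chose the genes, have medians of -0.63 to -1.23, and those of resubmerged to dried libraries have medians of -0.31, -0.08 and -0.07.

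Return to water for 1 h was compared with the dried library of the same period, where the choice of the genes plays no part. On balance the 150 genes were slightly lower under TMM scaling. Their median log2 ratio of resubmerged to dried was -0.31, -0.08 and -0.07 from 24, 36 and 72 h, and that of all genes tested was -0.01, 0.01 and 0.00. With scaling by total counts these medians turned to 0.08, 0.23 and 0.21, and those of all genes to 0.26, 0.30 and 0.28. The direction of the 150 as a group therefore depends on the scaling, while their median was below that of all genes in each period under both scalings. Without the 4 genes near absent from some libraries the TMM medians were -0.29, -0.22 and -0.09. Under TMM scaling 54 of the 150 (36%) were lower in all 3 periods, where 23.1% of all genes were, and 36 (24%) were higher in all 3, where 24.1% were. With total counts 27 (18%, against 13.9% of all) were lower and 43 (28.7%, against 32.2%) higher in all 3. Which direction was the more frequent therefore turned with the scaling.

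Single genes differed widely. After resubmergence from 24 h, 12 of the 150 were at least 4-fold higher and 14 at least 4-fold lower, where 8.47% and 5.43% of all genes were. From 36 h 23 were higher and 18 lower, against 15.3% and 8.94% of all. From 72 h 7 were higher and 2 lower, against 7.77% and 11.1% of all. As shares of the 150, the higher genes from 24 and 36 h were near the background. At 72 h 111 of the 150 (74%) were within 2-fold of the dried level, where 59% of all genes were.

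In all 3 periods 0 of the 150 genes were at least 4-fold higher and 1 was at least 4-fold lower, where 1.28% and 0.577% of all genes were. That 1 gene was c31655_g1_i1 (250 nt, 40.4% GC). It had 3993 counts in the control, 13931, 4045 and 1629 when dried, and 627, 406 and 528 when resubmerged. Its 3 resubmerged values were below all others, while its dried values lay on both sides of the control. Scaled by library, the dried level was 25.3-fold (95% counting interval 23.3 to 27.4), 12.4-fold (11.2 to 13.8) and 4.41-fold (3.99 to 4.87) above the resubmerged level. Its mean log2 ratio of resubmerged to dried was -3.47 ± 1.27 (SD, n = 3 periods). In edgeR's test across periods, blocked on drying period, its adjusted p was 0.136.

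The next lowest was c25878_g1_i1 (205 nt, 43.4% GC), with 20397 counts in the control, 124904, 78747 and 22955 when dried, and 9520, 6469 and 14693 when resubmerged. Its resubmerged counts were below those of all other libraries. The mean log2 ratio of resubmerged to dried was -2.99 ± 1.59 (SD, n = 3 periods, lower in 3 of 3). Here edgeR also gave an adjusted p of 0.136. Both genes have a GC content under 45%. When the trend with GC content was taken out of every library, the fitted log2 change went from -3.49 to -2.16 for c31655_g1_i1 and from -3.05 to -1.96 for c25878_g1_i1. For c34767_g1_i1, the gene of 37.9% GC that led the 24 h dried library, it went from -1.99 (edgeR adjusted p 0.256) to -0.45 (edgeR adjusted p 0.797).

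The highest mean ratios of resubmerged to dried rested on 2 of the 3 periods. For c16710_g1_i1 the resubmerged library was 0.480-fold (95% counting interval 0.320 to 0.712) the dried one from 24 h, and 2705-fold (2264 to 3260) and 10560-fold (7440 to 15543) above it from 36 and 72 h. Counts of c33025_g1_i1, a transcript of 1648 nt and 48.6% GC, were 38318 in the control, 12, 10 and 8 when dried, and 1, 31991 and 39791 when resubmerged. Its ratio of resubmerged to dried was 0.0732 (0.00171 to 0.495), 2571 (1398 to 5362) and 3481 (1767 to 8064) in order of period. Their adjusted p-values were 0.234 and 0.246 in the edgeR test.

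Across the 3 periods edgeR (quasi-likelihood, Benjamini-Hochberg) called 0 of the 150 genes and 0% of all 22186, with a smallest adjusted p of 0.136 among the 150. At an unadjusted p under 0.05 it found 40 of them, 21 higher and 19 lower, or 26.7% where the background was 21% (11% higher and 10.1% lower). Of the 21, 18 were higher in every period, and of the 19, 18 were lower in every period. DESeq2 called 40 of the 150, 20 higher and 20 lower, where it called 9.93% of all genes (5.35% higher and 4.59% lower). At an unadjusted p under 0.05 DESeq2 found 61 of them, where 25.2% of all genes passed. Limma-voom called 0 and found 70 at an unadjusted p under 0.05, where 25.9% of all genes passed. Without the 24 h pair edgeR called 4, which were c16710_g1_i1, c33025_g1_i1, c34555_g1_i1 and c34706_g3_i1, all higher with adjusted p-values of 0.00520 to 0.0154, where 0.171% of all genes were called, 0.0766% higher and 0.0947% lower. These are the 4 genes singled out above with the values in view. Their rule asked for near absence when dried and when resubmerged after 24 h, and presence in the other 2 resubmerged libraries. Calls without the 24 h pair therefore restate that rule. Without the low-count filter edgeR called 39 of the 150, where 3.62% of 89066 genes were called.

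**Figure D5:**
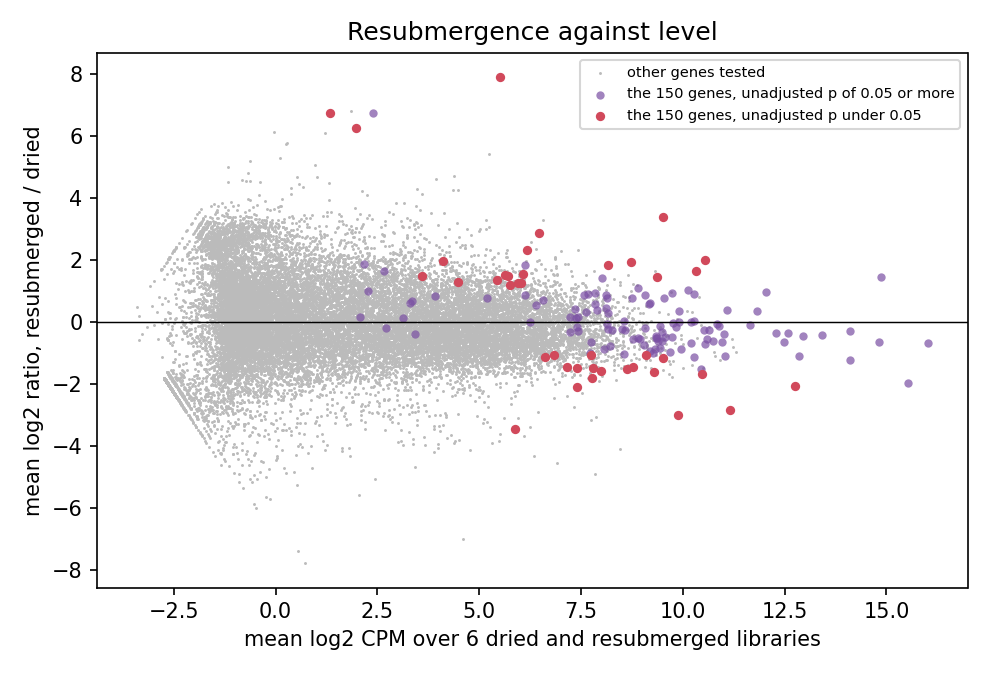
Mean log2 ratio of resubmerged to dried libraries over the 3 periods (vertical) against the mean log2 CPM over these 6 libraries (horizontal), for the 150 genes (coloured) and the other genes tested (grey). The 40 genes with an unadjusted p under 0.05 (red) lie on both sides of 0, 21 above and 19 below.

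The authors' deposited tables, which compare 1 library with 1, hold an adjusted p under 0.05 for 2 of the 150 genes higher and 1 lower after resubmergence from 24 h. From 36 h the authors' deposited tables have 3 higher and 0 lower. From 72 h the authors' deposited tables have 5 higher and 1 lower. Of all genes tested here, the authors' deposited tables call 0.198%, 0.279% and 2.7% in these periods. The 3 higher from 36 h are c34706_g3_i1, c33025_g1_i1 and c34555_g1_i1, which are also among the 5 higher from 72 h.

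The GC content of a gene went with its ratio of resubmerged to dried among the 150. The 18 genes of 35 to 45% GC had median log2 ratios of -1.94, -1.19 and -0.43 from 24, 36 and 72 h. Of these 18, 14, 10 and 11 were lower after resubmergence. The 68 genes of 45 to 55% GC had medians of -0.42, -0.41 and -0.12, and the 64 genes of 55% or more had medians of 0.08, 0.61 and 0.11. All tested genes of 45 to 55% GC had medians of -0.59, -0.43 and -0.05, and those of 55% or more 0.30, 0.43 and 0.09. All tested genes of 35 to 45% GC had medians of 0.00, 0.00 and -2.87. Their medians of dried to control were 0.00, 0.00 and 3.87. A gene without counts in both libraries gets a ratio of 0, so the medians of 0.00 do not show steady levels. The part of GC content in the ratios of single genes was not tested further than by the fit with the GC trend removed.

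In shares of counts the same bands differed between libraries. The 18 genes of 35 to 45% GC took 6.03% of the control, 18.9%, 13.6% and 5.16% when dried, and 3.82%, 2.85% and 4.61% when resubmerged. Most of this was c34767_g1_i1, with 14.4% and 10.4% in the 24 and 36 h dried libraries. The 64 genes of 55% GC or more took 13.9% of the control, 9.97%, 9.65% and 10.6% when dried, and 18.2%, 16.3% and 10.6% when resubmerged. Of this, c68088_g1_i1 held 3.41% in the control, and 8.04% and 7.37% in the libraries resubmerged after 24 and 36 h. With its counts kept in the total, the rest of the band was not above its control share in any other library.

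After 1 h in water the 150 genes were still below the control on balance. The median log2 ratio of resubmerged to control was -1.17, -0.96 and -1.23 from 24, 36 and 72 h, and that of all genes was 0.09, 0.07 and 0.04. At least 4-fold below the control were 57, 37 and 43 of them, where 8.59%, 5% and 5.58% of all genes were, and 53, 72 and 63 were within 2-fold, where 48.7%, 51.8% and 56.4% of all genes were. At least 4-fold above it were 1, 1 and 0, where 15.1%, 16.1% and 11.6% of all genes were. These comparisons share the control that chose the genes, so nothing is read from them against the background either.

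The lowest means of resubmerged against control were those of c27632_g2_i1 and c28097_g1_i1. c27632_g2_i1 (1452 nt, 51.7% GC) showed 16618 control counts, 10, 1401 and 377 when dried, and 19, 3464 and 680 when resubmerged. c28097_g1_i1 (397 nt, 49.6% GC) showed 8273 control counts, 51, 143 and 61 when dried, and 22, 2707 and 115 when resubmerged. For both the control was the highest of the 7 libraries and the library resubmerged after 36 h the next.

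The highest means were those of c33872_g2_i2 and c34167_g3_i1. c33872_g2_i2 (358 nt, 52.8% GC) showed 7455 control counts, 18645, 7931 and 19156 when dried, and 34925, 47478 and 23465 when resubmerged, a mean log2 ratio of resubmerged to control of 1.62 ± 0.53 (SD, n = 3 periods). c34167_g3_i1 (643 nt, 51.8% GC) showed 10515 control counts, 26498, 9624 and 21934 when dried, and 37780, 56959 and 45323 when resubmerged, a mean of 1.57 ± 0.24 (SD, n = 3). In both, all 3 resubmerged libraries were more than 2-fold above the control after scaling.

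The span from the lowest to the highest library takes in the control value that chose the genes, so it is a description. From the lowest to the highest of the 7 libraries, the 150 genes spanned a median of 2.79 on the log2 scale, against 2.64 for all genes tested. The span was under 4-fold for 47 of them (31.3%), where 32.2% of all genes were, and at least 16-fold for 43 (28.7%), where 24.9% of all genes were. Over the 6 dried and resubmerged libraries alone the median span was 2.29, against 2.40 for all genes, and 62 of the 150 (41.3%) spanned under 4-fold, against 38.6%. The smallest span over 7 libraries was that of c33338_g1_i2 (2120 nt, 53.5% GC), with 61965 counts in the control, 74837, 76719 and 76321 when dried, and 92466, 89380 and 86464 when resubmerged. After scaling its highest library was 1.26-fold above its lowest. The next, c27778_g1_i2 (208 nt, 52.9% GC), showed 3002 control counts, 3967, 4416 and 3360 when dried, and 3331, 4020 and 4381 when resubmerged. At the other end stood c34555_g1_i1 (1854 nt, 42.5% GC), with 30267 counts in the control, 5, 15 and 8 when dried, and 0, 14609 and 31133 when resubmerged, and c33025_g1_i1.

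By scaled level, the control was the highest of the 7 libraries for 66 of the 150 genes, as the choice favours. Of all genes 15.9% were highest there. The dried libraries of 24, 36 and 72 h were the highest for 30, 21 and 3, where they were for 16.2%, 13.2% and 15.0% of all genes. The libraries resubmerged after 24, 36 and 72 h were the highest for 13, 14 and 3, where they were for 12.6%, 17.2% and 9.97% of all genes. The library resubmerged after 72 h was the lowest for 37 of the 150, more than any other library, and for 8.05% of all genes.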

How the data were processed

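Per the labels' protocols, a Sigma plant kit gave the RNA and a True-seq kit the libraries. Cutadapt, Bowtie2 and DESeq are named, with no role, in the submitters' processing notes. The assembler's and counter's names: not given in the sources used here. Deposited by the authors, the expression table gives a read count and an FPKM value per transcript and library, and length and GC content in percent, per the file headers. Per the file headers, the authors' tables of 1 library against 1 hold the p-value, raw and adjusted, beside a ratio (fold change).

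Groups follow the treatment labels, also for the control, whose title begins with 24. Members, named genes and settings were chosen with earlier results of these data known. Genes are named by the following rule: the 5 highest control FPKM, ranks 149 to 152, and the 2 highest and 2 lowest means over periods of each comparison and of the span over 7 libraries. The 4 near-absent genes were singled out after their values were seen.

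Genes averaging 10 or more counts over 7 libraries were TMM-scaled with edgeR 4.0.16 in R 4.3.3. Log2 ratios used a prior count of 2. Effective library sizes were 19616047 to 30226710. Ratios of named genes carry exact (Clopper-Pearson) 95% counting intervals. These cover counting error only, as reads were not tied to molecules by identifiers. The test of resubmergence was edgeR's quasi-likelihood test on counts of the 6 dried and resubmerged libraries, blocked on drying period, with Benjamini-Hochberg adjustment over 22186 genes. The residual had 2 degrees of freedom and the biological coefficient of variation was 58.6%. Periods stand in for replicates, so the p-values reflect only how these samples vary. DESeq2 1.42.0 and limma 3.58.1 were alternatives. The test was tested on simulated data. No sequences are printed, as none were used here.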

Additional observations from a re-analysis of the deposited data

Results flagged for a closer look

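Genes under 35% GC, 1137 of them, lie outside the 150 by the GC limit. They took 2.48% of the counts in the control, 8.17% after 24 h and 3.57% after 36 h of drying, both above the control, and 1.57% after 72 h. After resubmergence they took 1.798%, 1.72% and 1.68%. Without the limit 8 of them would be among the 150.

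c33025_g1_i1 moved in opposite directions in different drying periods. Its log2 ratio of resubmerged to dried was 11.49 from 72 h and -2.32 from 24 h, where both libraries had few counts, 12 and 1. The difference between periods was not tested, since each period has 1 library per state. c32839_g1_i4 was the other of the 2 genes among the 150 that were at least 4-fold higher in 1 period and at least 4-fold lower in another, where 2.06% of all genes were.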

How the results depend on the processing

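With the transcript of highest control FPKM for each gene, the share of the 150 was 50.1% in the control and 40.0% over the resubmerged libraries. Without the GC limit the control share was 46.7%. Relative to the library totals that the FPKM values imply, the shares were 39.1% (control), 35.7% (dried) and 31.2% (resubmerged). As shares of summed FPKM they were 72.6%, 64.0% and 65.6%, which puts resubmerged above dried. The last 2 settings change the denominator or the unit by construction.

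Numbers of genes past the threshold depended on it by construction. At 2-fold, 25, 19 and 3 genes were above the control after 24, 36 and 72 h of drying (24.6%, 24.6% and 29.3% of all genes). Higher after resubmergence were 27, 45 and 24 (21.3%, 28.7% and 21.2% of all) and lower 40, 45 and 15 (21%, 24.4% and 19.8% of all). In all 3 periods 8 were higher and 4 lower (6.77% and 3.02% of all). At 2-fold against the control 18, 5 and 2 resubmerged genes were higher (29.8%, 28.9% and 25.8% of all), and 73 (36 h) and 85 (72 h) lower (19.2% and 17.8%). With total-count scaling 19 were at least 4-fold higher resubmerged than dried from 24 h and 7 lower, where 2475 and 786 of all 22186 genes were. From 72 h 1 was lower, where 2244 of all were. In all 3 periods 2 were higher and 0 lower, where 513 and 97 of all were. The medians of resubmerged to dried turned to 0.077, 0.23 and 0.21. Against the control, 0 resubmerged genes were higher from 24 h without the GC limit, where 3389 of 22319 genes were. With DESeq2 size factors 0 were higher from 36 h, where 3400 of 22186 were. The main setting had 1 each. Leaving out 24, 36 or 72 h gave 4, 0 and 5 genes higher resubmerged than dried in both other periods, where 610, 440 and 1262 of all 22186 were. Lower in both were 1, 1 and 9, where 356, 352 and 322 of all were.

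In the test of resubmergence, DESeq2 called 40 genes, where it called 9.93% of all, and had 61 at an unadjusted p under 0.05, where 25.2% passed. Without the count filter edgeR called 39, where it called 3.62% of 89066, and had 77 at an unadjusted p under 0.05, where 14.6% passed. Limma-voom found 70 at an unadjusted p under 0.05, where 25.9% of all passed, with 0 calls. The cause was not tested. Without the 24, 36 or 72 h pair edgeR called 4, 0 and 0 of the 150, where it called 38, 17 and 0 of all 22186. At an unadjusted p under 0.05 it then found 19, 36 and 51, where 2996, 3511 and 4487 of all passed. Without the drying period as a replicate block 0 were called and 41 had an unadjusted p under 0.05, where 0 and 4474 of all 22186 did. The other scalings, the GC trend and all transcripts in the fit also gave 0 calls. The 12 mean ratios at the ends of the 3 comparisons were picked as the most extreme, so their direction was close to fixed in advance. They kept their direction in all 60 cases with another scaling or without 1 period. Fitted changes of resubmerged against dried did not all do so: c33338_g1_i2 went from -0.10 to 0.22 with total counts and 0.12 with the GC trend removed, and c28097_g1_i1 from 0.89 to -0.47 without the 36 h pair. The settings for single periods, medians, named genes, spans and genes in 1 direction were added after seeing the data. Depth limits only the near-absent values.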
